A study of Homo sapiens with 15 samples.

Results

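Genes grouped as replication-independent histone variants were followed through their ribosome footprints in HEK293, an established human cell line from embryonic kidney. The 10 genes are H2AFZ, H2AFV, H2AFX, H2AFY, H2AFJ, H3F3A, H3F3B, CENPA, H1F0 and H1FX, written with the older symbols of the deposited table. They were taken by name, and all 10 were found among the table's 55773 gene names. Ribosome profiling sequences the short mRNA fragments that ribosomes protect from nuclease. The study profiled 15 libraries, 3 in each of 5 groups, and its title asks about codon-dependent regulation by the RNA-binding proteins ZC3H7A and ZC3H7B.

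A first set of 9 libraries came from Flp-In T-REx 293 lines that carried Flag/HA-tagged ZC3H7A, Flag/HA-tagged ZC3H7B or, as the control, the Flag/HA tag alone. The label of all 3 lines gives doxycycline, used at 1 µg/mL for 24 h to induce the tagged proteins, and their samples are described as 3 independent replicates. A second set of 6 libraries came from cells labelled ZC3H7A/B-DD, with a ZC3H7A knockout and a short hairpin RNA against ZC3H7B, and from Parental cells, wild type with a control hairpin. Both of these were selected with puromycin at 5 µg/mL until 2 passages before collection, and their frozen pellets were lysed with cycloheximide, a blocker of translation elongation, at 100 µg/mL, which is named for these cells and not for the Flag/HA lines. Each construct is a line of its own, so a difference between lines and a response to the construct cannot be told apart. The labels do not say whether replicates of the second set were separate cultures, and its p-values then reflect the spread among those samples alone, possibly a technical one. The 2 sets differ in lysis buffer, library kit and laboratory, and each group was tested only against the control of its own set.

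Most histone mRNA is made during S phase from replication-dependent genes, whose transcripts end in a stem-loop instead of a poly(A) tail. Variant histones come from separate genes, mostly with polyadenylated transcripts that are not restricted to S phase. These proteins replace the canonical histones at particular places in chromatin. H2A.Z and H3.3 mark regulatory elements and active genes, CENP-A founds the centromere, H2A.X carries the phosphorylation that marks broken DNA, macroH2A is enriched on silent chromatin, and the H1 variants bind the linker between nucleosomes.

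The targets were examined first, in normalized counts, that is, a gene's reads scaled by 1 factor per library. ZC3H7A stood at 37858, 37598 and 38675 in ZC3H7A-overexpressing libraries, against 6509, 6526 and 6607 in the Flag/HA control. ZC3H7B stood at 27538, 27182 and 28936 in ZC3H7B-overexpressing libraries, against 2230.5, 2137 and 2089 in the control. Each tagged gene was far above its control in all 3 libraries. The other target changed too, without overlap. ZC3H7B was higher by 0.39 on the log2 scale with ZC3H7A (limma adjusted p = 2.44e-07), at 2820 ± 162 against 2152 ± 71.8 in the control. ZC3H7A was lower with ZC3H7B (log2 change -0.46, limma adjusted p = 1.25e-09), at 4762 ± 80.6 against 6547 ± 52.6. ZC3H7A stood at 7116, 1890.3 and 5066 in the libraries labelled ZC3H7A/B-DD, against 1885, 1819.9 and 2311 in Parental libraries. ZC3H7B stood at 3948, 2399 and 2969 there, against 2479, 2321 and 2609 in Parental libraries. Their log2 changes of 1.03 and 0.30 did not pass (limma adjusted p = 0.085 and 0.198), and neither target had a mean below that of Parental libraries. The labelled depletion is thus not seen in these footprints, and every direction drawn from these libraries refers to the label alone.

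Assigned reads per library numbered 22661812 to 29515572 in the Flag/HA set and 20777204 to 42680589 in the other set. The median deviation of a gene from the other libraries of its group (log2) was 0.0686 to 0.124 in the Flag/HA set. It was 0.127 to 0.173 in the libraries labelled ZC3H7A/B-DD and 0.119 to 0.222 in Parental libraries, where replicate 3 gave the highest value of all 15. All 8 markers of HEK293 cells reached 10 in at least 1 library of every group, but some of them differed in level between lines. With ZC3H7A 2 were higher and 2 lower, with ZC3H7B 2 higher (1 without control replicate 1 or 2 or ZC3H7B replicate 3) and 3 lower. Libraries labelled ZC3H7A/B-DD had 1 higher and 4 lower. Over all genes tested, 29.2% were called higher and 28.2% lower with ZC3H7A, and 28.9% and 25.4% with ZC3H7B. In the libraries labelled ZC3H7A/B-DD these shares were 11.0% and 13.5%. A marker count near these shares is no result about the list. KRT8, an epithelial keratin, was lower in each (log2 change -1.48 with ZC3H7A, -0.55 with ZC3H7B and -2.37 in the libraries labelled ZC3H7A/B-DD), and VIM, the intermediate filament vimentin, was higher in each (0.46, 0.41 and 0.95). The libraries labelled ZC3H7A/B-DD were also lower in LIN28B (-1.04) and KRT18 (-0.92). LIN28B was higher with ZC3H7A (0.47) and lower with ZC3H7B (-0.26). Of 10 markers of fibroblasts and blood cells, 4 reached 10 in at least 1 library of each Flag/HA group and 6 in each of the other 2. DCN, CD3E and HBA1 stayed under 10 in all groups. The summed level of those 10 markers was 386 to 628 in the overexpressing libraries, against 705 to 909 in the control, and 688 to 821 in the libraries labelled ZC3H7A/B-DD, against 723 to 960.0 in Parental libraries. The part of either marker list in the results below was not tested. A footprint count depends on both the amount of an mRNA and its translation, which cannot be told apart here, and in bulk libraries fewer cells making a protein and less of its mRNA per cell cannot be told apart.

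Some members come in pairs that encode the same or nearly the same histone with different codons. H3F3A and H3F3B both encode H3.3. Their coding sequences of 408 bases differ at 88 bases, 77 of them at the last base of a codon, and the encoded proteins differ at 0 residues. H2AFZ and H2AFV encode H2A.Z.1 and H2A.Z.2, and their 384 bases differ at 75, 64 of them at the last base of a codon, with 3 residues changed. The stretches below show how the members of a pair differ where their proteins do not, or hardly do. They cover the same codons in both genes of a pair, lie in coding exons, are written in coding sense from GENCODE release 29 (GRCh38), and capitals mark the bases that differ from the partner. The H3F3A stretch is chr1:226065660-226065779 on the + strand, the H3F3B stretch is chr17:75778840-75778959 on the - strand, the H2AFZ stretch is chr4:99948821-99948940 on the - strand and the H2AFV stretch is chr7:44835539-44835658 on the - strand.
H3F3A: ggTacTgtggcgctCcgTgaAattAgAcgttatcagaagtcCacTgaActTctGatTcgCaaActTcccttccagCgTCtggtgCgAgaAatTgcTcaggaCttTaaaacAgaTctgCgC
H3F3B: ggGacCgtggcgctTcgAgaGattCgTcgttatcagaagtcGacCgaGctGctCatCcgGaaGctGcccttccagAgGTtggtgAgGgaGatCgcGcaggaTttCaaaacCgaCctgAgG
H2AFZ: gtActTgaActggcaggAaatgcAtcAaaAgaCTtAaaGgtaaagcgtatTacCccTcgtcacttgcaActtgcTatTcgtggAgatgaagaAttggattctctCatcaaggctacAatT
H2AFV: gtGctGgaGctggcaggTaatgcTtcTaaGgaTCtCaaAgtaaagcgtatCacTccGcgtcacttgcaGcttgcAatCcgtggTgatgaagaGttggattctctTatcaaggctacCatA

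The H3.3 stretches differ at 30 of 120 bases, 25 of them at the last base of a codon, and the H2A.Z stretches at 22 of 120, 21 of them at the last base. The share of codons ending in A or T (AT3) describes this position over a whole coding sequence. AT3 was 55.6% for H3F3A and 28.1% for H3F3B, with 52.0% for H2AFZ and 49.6% for H2AFV. Among the other members it was 36.7% for H2AFY, 36.0% for CENPA, 20.2% for H1F0, 15.6% for H2AFJ, 8.02% for H1FX and 7.75% for H2AFX. The median over 12860 genes tested in the Flag/HA set was 40.8%, so 3 members lay above it and 7 below.

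Footprints are short, and a read from a stretch that another gene also holds cannot be given to 1 gene by its sequence. All 381 of the 28-base windows in the H3F3A coding sequence also occur in transcripts of other annotated genes, and the processed pseudogene H3F3AP4 alone holds all of them. For H2AFZ the share was 58.3%, mostly with the pseudogenes H2AFZP3 and H2AFZP2, and for H2AFV it was 45.1%, all with the pseudogene H2AFVP1. H3F3B shares 45.9% of its windows with H3F3C, which encodes the hominid H3.5. H1FX shares 47.9% with the antisense gene H1FX-AS1, and H2AFY 13.9% with the antisense C5orf66. The share was 19.2% for H2AFX and 6.94% for H2AFJ, with other histone genes as the leading partners, and 0% for H1F0 and CENPA. How the authors' counting treated such reads, and whether it used strand, is not given in the sources used here, so the values of H3F3A in particular are uncertain, and those of H2AFZ, H2AFV, H3F3B and H1FX to a lesser extent.

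**Figure D1:**
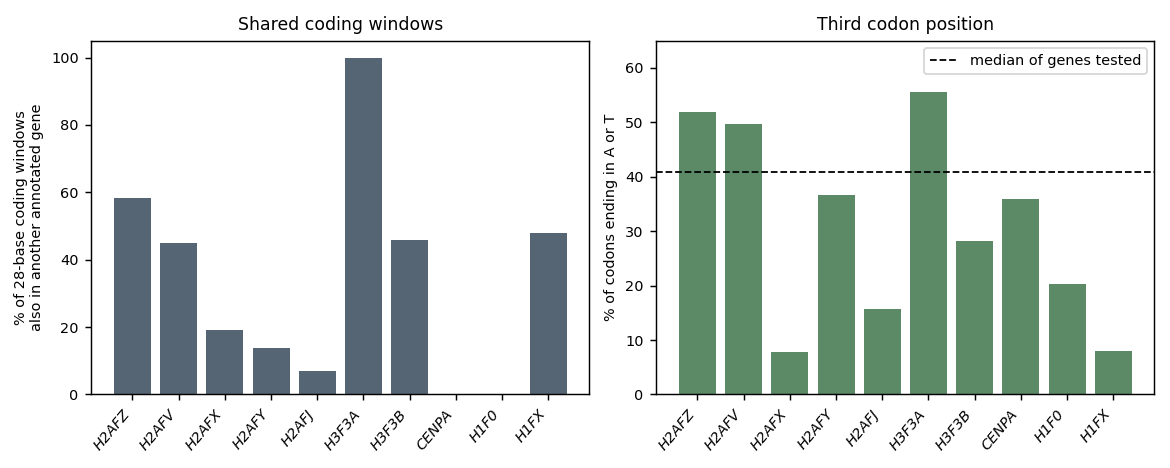
Left, percentage of the 28-base windows in each gene's coding sequence that also occur in another annotated gene; right, percentage of its codons that end in A or T, with the median of the genes tested as a dashed line. H3F3A stands at 100% of windows shared and H1F0 and CENPA at 0%, and H3F3A, H2AFZ and H2AFV lie above the median AT3 of 40.8%.

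Per kilobase of coding sequence, H2AFZ had the highest level of the 10 genes in every group. Its level was 39065 ± 893 normalized counts per kilobase in ZC3H7A-overexpressing cells, 40511 ± 3933 in ZC3H7B-overexpressing cells and 42690.2 ± 172 in the Flag/HA control (SD, n = 3 each). It was 30690.5 ± 3251 in the libraries labelled ZC3H7A/B-DD and 28657 ± 4086 in Parental libraries. In the Flag/HA groups H2AFV came next at 12392 to 13373 per kilobase, then H3F3B at 8613 to 9186, with no overlap between the libraries of these neighbours. H2AFX and H2AFY followed at 7206 to 8732, and their libraries overlapped in ZC3H7A-overexpressing cells only. H1FX stood at 4494 to 4997, H1F0 at 1604 to 2922 and CENPA at 854 to 906 per kilobase. H3F3A and H2AFJ were last at 425 to 715 and 447 to 576, and overlapped in ZC3H7A-overexpressing and control libraries, as CENPA and H3F3A did in ZC3H7B-overexpressing libraries. In the other set H3F3B and H2AFX were next to H2AFZ, at 24082 and 19279.8 in the libraries labelled ZC3H7A/B-DD and 24383 and 22432 in Parental libraries. The libraries of H3F3B and H2AFX overlapped in both of these groups, and H2AFZ overlapped with H3F3B in Parental libraries. H2AFY overlapped with H2AFV in both, and H2AFV with H1FX and CENPA with H2AFJ in the libraries labelled ZC3H7A/B-DD. H3F3A was last there, at 243.6 and 255.9 per kilobase. Since every coding window of H3F3A also occurs in other annotated genes, its place in this order is uncertain in all groups.

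**Figure D2:**
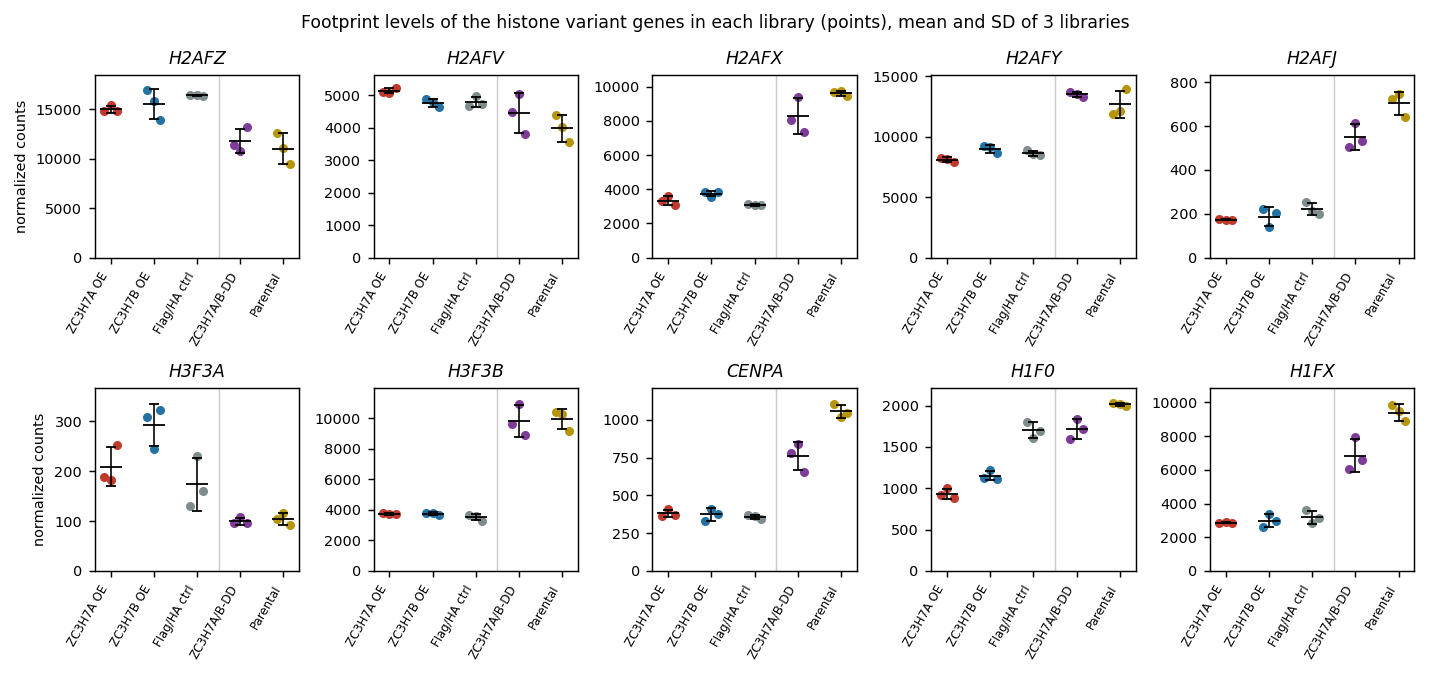
Normalized counts (vertical axes, linear, each from 0) of the 10 histone variant genes in ZC3H7A-overexpressing, ZC3H7B-overexpressing, Flag/HA control, ZC3H7A/B-DD and Parental libraries (colored points), with the mean and SD of each group in black and a gray line between the 2 sets. The H1F0 libraries of both overexpressing lines, at 882 to 1219, lie below the control libraries at 1609 to 1800.1.

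All 10 members passed the filter on low values, a value of 10 or more in at least 3 libraries of a fit. Changes are log2 changes on the log2(value + 1) scale, tested with limma across all genes and called at an adjusted p (Benjamini-Hochberg over all genes tested) under 0.05. With ZC3H7A overexpression 1 member was called higher and 3 lower, against 29.2% and 28.2% of 15599 genes tested. ZC3H7B overexpression gave 2 members called higher and 1 lower, against 28.9% and 25.4% of all genes. ZC3H7A set against ZC3H7B gave 0 members called higher (limma) and 4 lower, against 18.4% and 18.2% of genes, and 5 members had an unadjusted p under 0.05. By edgeR and by DESeq2, 1 member was called higher there, H2AFV. In the libraries labelled ZC3H7A/B-DD 0 members were called higher and 3 lower, against 11.0% and 13.5% of 17092 genes. For those higher calls edgeR and DESeq2 also gave 0, and 4 members had an unadjusted p under 0.05, all below 0. The median size of the members' log2 changes was 0.12, 0.10, 0.10 and 0.19 in these comparisons, in the order given, beside 0.32, 0.29, 0.19 and 0.28 over all genes tested. Comparisons of the overexpressing lines share the control libraries, and their values are given side by side without a test of their likeness.

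**Figure D3:**
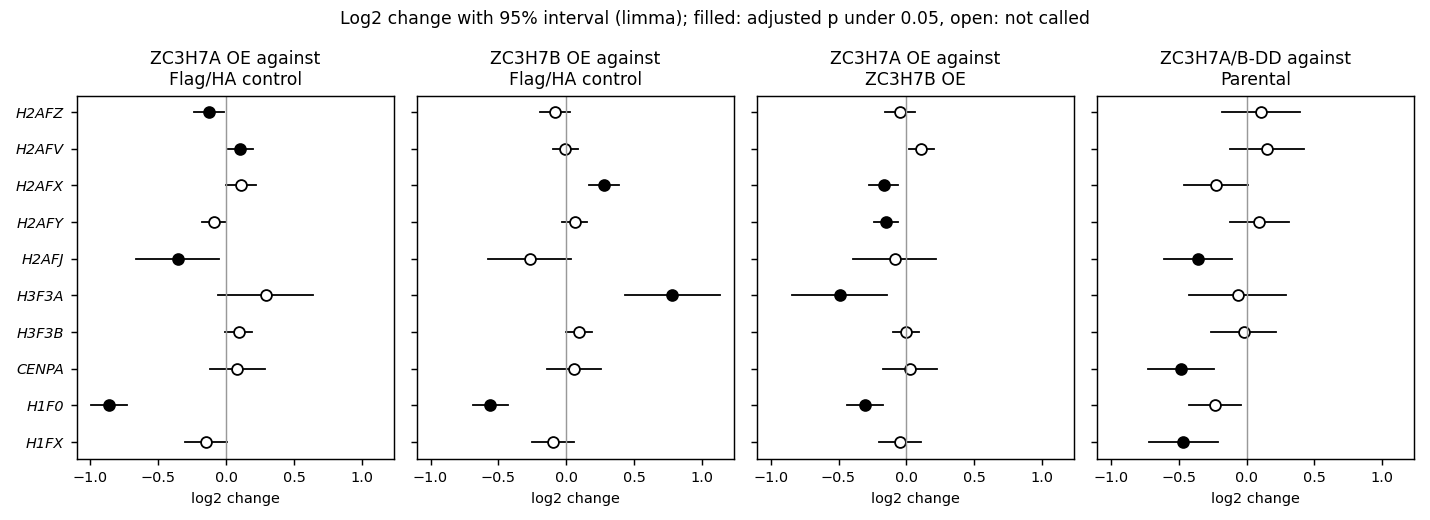
Log2 change (horizontal axes) of the 10 genes with its 95% interval in the 4 comparisons, from limma on log2(value + 1); filled points have an adjusted p under 0.05. H1F0 lies at -0.86 and -0.56 in the overexpressing lines, H3F3A at 0.78 with ZC3H7B, and CENPA at -0.48 in the libraries labelled ZC3H7A/B-DD.

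H1F0 encodes H1.0, the linker histone that accumulates in differentiated and resting cells. It had the largest change of any member with ZC3H7A overexpression, and it fell with both proteins. Its normalized counts were 916, 1003 and 882 in ZC3H7A-overexpressing libraries, 1129.7, 1219 and 1112 in ZC3H7B-overexpressing libraries, and 1800.1, 1609 and 1692 in the control. The 3 groups did not overlap, with ZC3H7A lowest, ZC3H7B between and the control highest. H1F0 fell by 0.86 on the log2 scale with ZC3H7A (95% interval -0.996 to -0.73, limma adjusted p = 6.09e-11), a change of -45.1%. It fell by 0.56 with ZC3H7B (interval -0.69 to -0.43, limma adjusted p = 8.22e-08), a change of -32.1%. Both calls held under each alternative and with each library left out. None of the H1F0 windows is shared with another annotated gene (chr22:37805093-37807436, + strand), and its counts rest on 676 to 1422 reads per Flag/HA library.

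In the other set H1F0 stood at 1595, 1839.9 and 1716 in the libraries labelled ZC3H7A/B-DD, against 2028, 2019.7 and 1993 in Parental libraries. All 3 were below all 3, with a log2 change of -0.23 (interval -0.42 to -0.04), and the test did not pass (limma adjusted p = 0.0737). Only with 1 spread for all 15 samples was it called. H1FX, the H1X gene (chr3:129314771-129316277, - strand), encodes a linker histone that is set apart in sequence from the other H1 proteins. Its counts were 2860.1, 2882 and 2873 in ZC3H7A-overexpressing libraries and 2606, 3357 and 2983 with ZC3H7B, against 3596, 2823 and 3159 in the control. These groups overlapped, and the log2 changes of -0.15 and -0.10 did not pass (limma adjusted p = 0.101 and 0.276). They depended on single libraries. With 1 left out the change ran from -0.23 to -0.06 with ZC3H7A, and was called without control replicate 2 (limma adjusted p = 0.0136). With ZC3H7B it ran from -0.19 to -0.0057, and was called without control replicate 2 (0.0484) or ZC3H7B replicate 2 (0.0406). H1FX stood at 6047, 7950.3 and 6557 in the libraries labelled ZC3H7A/B-DD, against 9846, 9477 and 8878 in Parental libraries, with no overlap. It fell by 0.46 on the log2 scale there (interval -0.72 to -0.21, limma adjusted p = 0.018), a change of -27.5%. That call was lost without Parental replicate 1 or 2 or without ZC3H7A/B-DD replicate 1 or 3 (log2 change -0.46 to -0.38, limma adjusted p 0.0602 to 0.0733), and it held without Parental replicate 3 (limma adjusted p = 0.00754).

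The H2A.Z genes, H2AFZ (chr4:99948086-99950388, - strand) and H2AFV (chr7:44826791-44848083, - strand), were called in opposite directions, by small amounts, with ZC3H7A overexpression. H2A.Z is put into nucleosomes near promoters by the SRCAP and p400 complexes. H2AFZ stood at 14763, 15394 and 14846 in ZC3H7A-overexpressing libraries and at 16926, 15806 and 13937 with ZC3H7B, against 16416, 16444 and 16319 in the control. H2AFV stood at 5104, 5073 and 5229 with ZC3H7A and at 4882, 4774 and 4619 with ZC3H7B, against 4658, 4962 and 4717 in the control. All ZC3H7A libraries were below the control for H2AFZ and above it for H2AFV, while the ZC3H7B libraries overlapped with the control for both. H2AFZ fell by 0.13 on the log2 scale with ZC3H7A (interval -0.24 to -0.02, limma adjusted p = 0.0431). H2AFV rose by 0.10 (interval 0.01 to 0.19, limma adjusted p = 0.0454). Both calls are fragile. H2AFZ lost its call without any 1 control library or without ZC3H7A replicate 1 or 3 (limma adjusted p 0.0862 to 0.123), without the filter (0.0539), with quantile scaling (0.476) and with 1 spread for all 15 samples (0.334). H2AFV lost it without control replicate 1 or 3, any 1 ZC3H7A library or ZC3H7B replicate 2 (limma adjusted p 0.0534 to 0.166), without the filter (0.12), with DESeq2 size factors (0.0842), by DESeq2 (adjusted p = 0.0909) and with 1 spread for all 15 samples (0.373).

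H2AFZ made up 74.3%, 75.2% and 74.0% of the summed counts of the H2A.Z pair in ZC3H7A-overexpressing libraries. The share was 77.6%, 76.8% and 75.1% with ZC3H7B, against 77.9%, 76.8% and 77.6% in the control. Each ZC3H7A library lay below each control library, a difference of -2.94 percentage points, and the exact two-sided permutation test gave p = 0.1, the smallest that 3 against 3 allows. With ZC3H7B the difference was -0.923 points (exact permutation p = 0.4). The share was 71.8%, 68.2% and 77.6% in the libraries labelled ZC3H7A/B-DD, against 74.1%, 73.3% and 72.6% in Parental libraries, and the groups overlapped (exact permutation p = 0.7). Adjusted over the 8 share comparisons, 4 for each pair, no p can pass. The level of H2AFZ was 11402, 10773 and 13180.3 in the libraries labelled ZC3H7A/B-DD, against 12556, 11039 and 9419 in Parental libraries. H2AFV stood at 4481, 5027 and 3809.7 there, against 4383, 4013 and 3556. The log2 changes of 0.10 for H2AFZ (interval -0.18 to 0.39) and 0.15 for H2AFV (interval -0.12 to 0.43) did not pass (limma adjusted p = 0.589 and 0.395).

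H2AFX rose with ZC3H7B overexpression. It encodes H2A.X (chr11:119093854-119095467, - strand), whose gene gives both a stem-loop and a polyadenylated transcript. Its counts were 3833, 3576 and 3828 in ZC3H7B-overexpressing libraries and 3323, 3617 and 3078 in ZC3H7A-overexpressing libraries, against 3141, 3064 and 3069.9 in the control. Every ZC3H7B library was above every control library, and the ZC3H7A libraries overlapped with the control. The log2 change was 0.28 with ZC3H7B (interval 0.17 to 0.39, limma adjusted p = 0.000108), or 21.1% more, and the call held under each alternative and with each library left out. With ZC3H7A it was 0.11 (interval 0.00 to 0.22, limma adjusted p = 0.0846), and it passed with quantile scaling and without ZC3H7A replicate 3. H2AFX stood at 8073, 9403 and 7337 in the libraries labelled ZC3H7A/B-DD, against 9667, 9739 and 9463 in Parental libraries. These did not overlap, but the log2 change of -0.23 (interval -0.46 to 0.01) did not pass (limma adjusted p = 0.148), except with 1 spread for all 15 samples (0.0336).

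H2AFY (chr5:135333900-135399914, - strand) encodes macroH2A1, an H2A with a large folded domain at its C-terminus. Its counts were 8288, 8136 and 7940.0 in ZC3H7A-overexpressing libraries and 9259.8, 9180.4 and 8655 in ZC3H7B-overexpressing libraries, against 8898, 8556 and 8525 in the control. The ZC3H7A libraries lay below the control, while the ZC3H7B libraries overlapped with it. Neither change was called against the control, at -0.09 with ZC3H7A (limma adjusted p = 0.0696) and 0.06 with ZC3H7B (0.246), and both depended on the setting. For ZC3H7A the change was called lower with DESeq2 size factors (limma adjusted p = 0.0251) and by DESeq2 (adjusted p = 0.0157). It was also called lower with the replicate number as a block, and without ZC3H7B replicate 3 (limma adjusted p = 0.0261). With quantile scaling it was 0.03 and had the other sign. For ZC3H7B it was called at 0.17 with quantile scaling (limma adjusted p = 0.000156). H2AFY stood at 13696, 13582 and 13277 in the libraries labelled ZC3H7A/B-DD, against 11890.0, 12178 and 13999 in Parental libraries, which overlapped. Its close relative H2AFY2, macroH2A2, was not called in any of the 4 comparisons (log2 change -0.06 to 0.08).

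H2AFJ (chr12:14774383-14778002, + strand) encodes H2A.J, a mammalian variant that differs little from canonical H2A and accumulates in senescent cells with damaged DNA. It was low, with 104 to 201 reads per Flag/HA library. Its counts were 175, 172 and 172 in ZC3H7A-overexpressing libraries and 220.5, 139.5 and 202 with ZC3H7B, against 254, 213 and 201 in the control. The ZC3H7A libraries lay below the control, and H2AFJ fell by 0.36 on the log2 scale (interval -0.66 to -0.05, limma adjusted p = 0.0438). With ZC3H7B the change was -0.27 and did not pass (limma adjusted p = 0.131). It was -0.07 without ZC3H7B replicate 2, and was called without ZC3H7B replicate 1 (-0.40, limma adjusted p = 0.0387) and with quantile scaling (-0.40, limma adjusted p = 0.0289). The counts were 502, 616 and 532 in the libraries labelled ZC3H7A/B-DD, against 723, 744 and 643 in Parental libraries, and H2AFJ fell by 0.36 there too (interval -0.61 to -0.11, limma adjusted p = 0.0456). Both calls are fragile. The call with ZC3H7A was lost without control replicate 1 or 2 or any 1 ZC3H7A library (log2 change -0.38 to -0.26, limma adjusted p 0.0623 to 0.2) and with 1 spread for all 15 samples (0.0583). The call in the libraries labelled ZC3H7A/B-DD was lost without Parental replicate 1 or 2 or ZC3H7A/B-DD replicate 1 or 3 (limma adjusted p 0.123 to 0.176). It was also lost without the filter (0.0716), with quantile scaling (0.0667) and with the replicate number as a block (0.0693). The same held with 1 spread for all 15 samples (0.0654).

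H3F3A (chr1:226061851-226072001, + strand), which encodes H3.3 as H3F3B does, rose with ZC3H7B overexpression. H3F3B was not called, though its ZC3H7B libraries also lay above the control. A part of codon endings in this was not tested. H3F3A stood at 309, 244 and 323 in ZC3H7B-overexpressing libraries and at 189, 183 and 253 in ZC3H7A-overexpressing libraries, against 129, 231 and 159.7 in the control. Every ZC3H7B library was above every control library, and the ZC3H7A libraries overlapped with the control. The log2 change with ZC3H7B was 0.78 (interval 0.43 to 1.13, limma adjusted p = 0.00041), or 71.8% more, and the call held under each alternative and with each library left out, at 0.59 to 1.01 with 1 library left out. With ZC3H7A it was 0.29 (interval -0.06 to 0.64, limma adjusted p = 0.147), and it passed at 0.52 (limma adjusted p = 0.00934) without control replicate 2. These values rest on 102 to 220 reads per library. All windows of the coding sequence also occur in pseudogenes, and where the counted reads lie in the gene was not examined, so the values are uncertain. The pseudogene H3F3AP4 had 0 counts in all 9 Flag/HA libraries.

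H3F3B (chr17:75776434-75785893, - strand) stood at 3798, 3796 and 3649 in ZC3H7B-overexpressing libraries and at 3791, 3715 and 3712 in ZC3H7A-overexpressing libraries, against 3647, 3608 and 3287 in the control. All overexpressing libraries lay above the control, by 0.09 on the log2 scale for each protein (limma adjusted p = 0.0965 for ZC3H7B and 0.104 for ZC3H7A). Neither passed, and both did with quantile scaling, at 0.20 and 0.18. H3F3A gave 7.52%, 6.04% and 8.12% of the pair's counts in ZC3H7B-overexpressing libraries and 4.74%, 4.70% and 6.38% in ZC3H7A-overexpressing libraries, against 3.42%, 6.01% and 4.63% in the control. The difference was 2.54 points for ZC3H7B (exact two-sided permutation p = 0.1, the smallest possible here) and 0.585 points for ZC3H7A (exact permutation p = 0.4). These shares are as uncertain as the H3F3A counts, and do not show how much H3.3 each gene supplies. Neither H3.3 gene was called in the other set. H3F3A stood at 95.7, 107 and 95.4 in the libraries labelled ZC3H7A/B-DD, against 104, 116 and 92.4 in Parental libraries, a log2 change of -0.07 (limma adjusted p = 0.792). H3F3B stood at 9645, 10928 and 8904, against 10385, 10295 and 9165, a log2 change of -0.02 (interval -0.26 to 0.22, limma adjusted p = 0.905).

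H3F3C, the gene that shares windows with H3F3B, was low in the Flag/HA set and high in the other. It stood at 10.6, 21.5 and 16.1 in ZC3H7B-overexpressing libraries and 17.4, 26.5 and 22.2 in ZC3H7A-overexpressing libraries, against 39.2, 25.1 and 27.7 in the control. H3F3C stood at 5307, 2445 and 2776 in the libraries labelled ZC3H7A/B-DD, against 3916, 3247 and 3761 in Parental libraries, with no call (limma adjusted p = 0.721). The 2 sets were made by different protocols, and how reads shared with H3F3B were assigned in each is not given in the sources used here. H3F3C was called lower with ZC3H7B (log2 change -0.92, limma adjusted p = 0.0276), on 7 to 31 reads per library of those 2 groups. Leaving out control replicate 1 or ZC3H7B replicate 1 ended that call.

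CENPA fell in the libraries labelled ZC3H7A/B-DD. It encodes the centromeric H3 variant that seeds the kinetochore (chr2:26764289-26801067, + strand). Its counts were 782, 839.6 and 657 in those libraries, against 1104, 1021 and 1047 in Parental libraries, with no overlap. CENPA fell by 0.48 on the log2 scale (interval -0.73 to -0.24, limma adjusted p = 0.0125), a change of -28.5%. The call held under each alternative and with each library left out, at limma adjusted p 0.011 to 0.048 with 1 library left out, and none of its windows is shared with another gene. In the Flag/HA set CENPA stood at 362, 409 and 370.4 with ZC3H7A and at 329.9, 413 and 379.9 with ZC3H7B, against 371, 362 and 343 in the control. These groups overlapped, with log2 changes of 0.08 (interval -0.12 to 0.28) and 0.06 (interval -0.14 to 0.26) that did not pass (limma adjusted p = 0.484 and 0.654).

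The overexpressing lines were also set against each other. H1F0 was lower with ZC3H7A than with ZC3H7B by 0.31 on the log2 scale (interval -0.44 to -0.17, limma adjusted p = 0.000447), with no overlap, under each alternative and with each library left out. H2AFY was lower by 0.15 (interval -0.24 to -0.06, limma adjusted p = 0.00674), also with no overlap, and it lost the call only with 1 spread for all 15 samples (0.123). H2AFX was lower by 0.17 (interval -0.28 to -0.06, limma adjusted p = 0.0148) with overlapping libraries, and lost the call without ZC3H7A replicate 3 or ZC3H7B replicate 1 (log2 change -0.11 and -0.15, limma adjusted p = 0.104 and 0.0598) and with 1 spread for all 15 samples (0.153). H3F3A was lower by 0.49 (interval -0.84 to -0.14, limma adjusted p = 0.0254), again with overlap. Its call was lost without ZC3H7A replicate 1 or 2 or ZC3H7B replicate 1 or 3 (limma adjusted p 0.0841 to 0.104) and with 1 spread for all 15 samples (0.0775). H2AFV was higher with ZC3H7A in all libraries, but its log2 change of 0.11 lay at the edge of the threshold (limma adjusted p = 0.0517), and 9 of 12 alternatives called it.

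The replication-dependent histones are the S-phase counterparts of these genes. Of 45 that passed the filter in the Flag/HA set, 32 were higher and 1 lower with ZC3H7A (median log2 change 0.41), and 39 were higher with ZC3H7B (0.49). Examples are HIST1H2AE, at 6896 ± 544 with ZC3H7A and 2138 ± 276 with ZC3H7B against 642 ± 20.2 in the control, and HIST1H1D, at 14548 ± 531 and 13322 ± 1413 against 4131 ± 171 (SD, n = 3 each). Of 56 tested in the other set, the libraries labelled ZC3H7A/B-DD had 1 higher and 25 lower (median -0.34), and the lower count was 11 without Parental replicate 2. The medians over all genes tested were 0.02, 0.04 and 0.02 in these 3 comparisons. Of all genes tested, 29.2% were called higher and 28.2% lower with ZC3H7A, and 28.9% and 25.4% with ZC3H7B. The shares were 11.0% and 13.5% in the libraries labelled ZC3H7A/B-DD. Many of these genes are near-identical copies, so their single values are uncertain. How reads shared by copies were counted is not given in the sources used here, so sums over a class may be uncertain too.

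Summed over a class, the variants made up a smaller part relative to their replication-dependent relatives in the overexpressing lines. For H2A the ratio of the 5 variants to the 16 replication-dependent genes was 0.233, 0.245 and 0.252 with ZC3H7A and 0.249, 0.252 and 0.251 with ZC3H7B, against 0.325, 0.342 and 0.339 in the control. For H3 (3 variants, 13 genes) it was 0.0531 ± 0.00321 and 0.0523 ± 0.00196, against 0.0745 ± 0.0042, and for H1 (2 variants, 5 genes) 0.0345 ± 0.00153 and 0.036 ± 0.00406, against 0.0553 ± 0.00378 (SD, n = 3 each). In all 3 classes every overexpressing library lay below every control library. The H2A variants summed to 31770.3 ± 573 with ZC3H7A and 33279.7 ± 1948 with ZC3H7B, against 33146 ± 280.0, whereas the replication-dependent H2A genes summed to 130744 ± 5995 and 132708 ± 8303, against 98815 ± 3212. The H3 variants summed to 4328 ± 17.9 with ZC3H7A and 4414 ± 54.5 with ZC3H7B, against 4046 ± 223, and the replication-dependent H3 genes to 81630 ± 4620 and 84428 ± 4109, against 54359 ± 1841. The H1 variants summed to 3805 ± 70.2 with ZC3H7A and 4136 ± 422 with ZC3H7B, against 4893 ± 483, and the replication-dependent H1 genes to 110354 ± 5915 and 115141 ± 5611, against 88390.2 ± 4245. The replication-dependent mean was thus above the control in all 3 classes, while the variant mean was above it for H3, below it for H1, and for H2A below it with ZC3H7A and close to it with ZC3H7B. In the other set the ratio was 0.263 ± 0.00536 for H2A and 0.0859 ± 0.00376 for H3 in the libraries labelled ZC3H7A/B-DD, against 0.22 ± 0.0041 and 0.0719 ± 0.00222 in Parental libraries, without overlap. For H1 it was 0.0423 ± 0.00421, against 0.0417 ± 0.00246, with overlap. These ratios are given without a test.

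**Figure D4:**
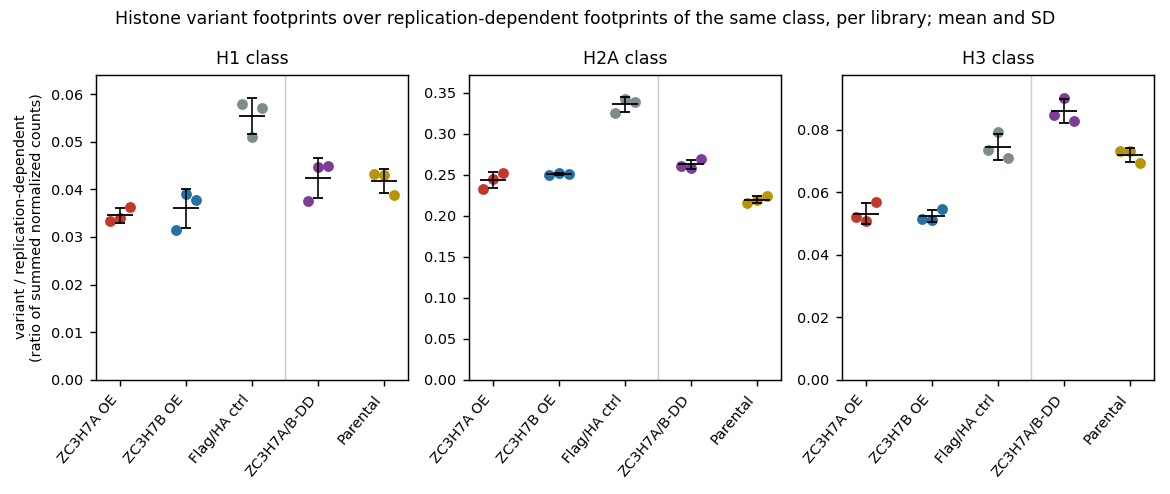
Summed normalized counts of the variant genes of the H1, H2A and H3 classes divided by those of the replication-dependent genes of the same class (vertical axes, from 0), per library (points), with mean and SD in black. In each class the 6 overexpressing libraries lie below the 3 Flag/HA control libraries, and for H2A and H3 the libraries labelled ZC3H7A/B-DD lie above Parental libraries.

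Chaperones place the variants into chromatin. The counts called in this and the following lists stand beside shares over all genes tested of 29.2% higher and 28.2% lower with ZC3H7A, 28.9% and 25.4% with ZC3H7B, and 11.0% and 13.5% for libraries labelled ZC3H7A/B-DD. A count near these shares is no result about its list. Of 14 chaperones of H3.3 and CENP-A, 5 were higher and 7 lower with ZC3H7A overexpression (3 higher without ZC3H7A replicate 1), and 8 were higher and 3 lower with ZC3H7B. HJURP, which loads CENP-A, went opposite ways in the overexpressing lines, at 1922 ± 94.7 with ZC3H7A (log2 change -0.48, limma adjusted p = 2.08e-08) and 3385 ± 132 with ZC3H7B (0.33, limma adjusted p = 5.38e-06), against 2683 ± 86.9 in the control. ZC3H7A against ZC3H7B gave -0.82 for HJURP (limma adjusted p = 7.58e-12). ATRX, the remodeler that puts H3.3 into heterochromatin, fell with both, at 12883 ± 127 with ZC3H7A and 10404 ± 165 with ZC3H7B, against 15061 ± 178 in the control. HIRA, which puts H3.3 into active genes, was higher with ZC3H7A, at 255.5 ± 34.3 against 165 ± 24.7 (log2 change 0.63, limma adjusted p = 0.000276). In the libraries labelled ZC3H7A/B-DD 3 of 14 were higher and 3 lower. There the CENP-A loading factors MIS18A and OIP5 fell beside CENPA, MIS18A to 936 ± 66.6 against 1710.2 ± 170.1 in Parental libraries (log2 change -0.87, limma adjusted p = 0.00061) and OIP5 to 669 ± 73.8 against 1012 ± 111 (log2 change -0.60, limma adjusted p = 0.00725). The lower count was 3 with each library left out, while the higher count was 0 without Parental replicate 2 or ZC3H7A/B-DD replicate 1.

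Of 20 genes that exchange or remove H2A.Z, 6 were higher and 8 lower with ZC3H7A and 8 higher and 4 lower with ZC3H7B. ACTR6, a subunit of the SRCAP complex, fell to 2299.9 ± 18.2 with ZC3H7A and to 3559 ± 306 with ZC3H7B, against 4492 ± 61.9 in the control (log2 change -0.97 and -0.34, limma adjusted p = 3.49e-13 and 7.03e-06). RUVBL2, an ATPase of several remodelers, rose to 7651 ± 386 and 7742 ± 262, against 5423 ± 165. In the libraries labelled ZC3H7A/B-DD 5 were higher and 2 lower, with 1 higher without ZC3H7A/B-DD replicate 3 and 1 lower without any 1 library but Parental replicate 3. Of 16 genes of H2A.X damage signalling, 3 were higher and 6 lower with ZC3H7A, and 3 higher and 4 lower with ZC3H7B. For the line labelled ZC3H7A/B-DD 3 were higher and 1 lower. That last higher count was 5 without Parental replicate 3 and 0 without any other 1 library of that set. RAD50, part of the complex that senses breaks, fell to 10453 ± 233 with ZC3H7A and 12530.2 ± 580.2 with ZC3H7B, against 15103 ± 471.

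Among 16 other histone chaperones, 3 were higher and 7 lower with ZC3H7A, 8 higher and 1 lower with ZC3H7B, and 4 higher and 2 lower of 15 tested in the libraries labelled ZC3H7A/B-DD. The 3 higher with ZC3H7A became 5 without ZC3H7A replicate 3 or ZC3H7B replicate 3, and the 4 higher in the other set became 9 without Parental replicate 3 and 2 without Parental replicate 1 or 2 or ZC3H7A/B-DD replicate 1. CHAF1A, the large subunit of the assembly factor of replicated DNA, rose to 5151 ± 23.3 with ZC3H7B, against 3554 ± 119 in the control (log2 change 0.54, limma adjusted p = 1.12e-09). SET fell to 5141 ± 245 in the libraries labelled ZC3H7A/B-DD, against 9533 ± 821 in Parental libraries (log2 change -0.89, limma adjusted p = 0.000331). Of 20 markers of S phase and mitosis, 4 were higher and 10 lower with ZC3H7A and 6 higher and 5 lower with ZC3H7B. In the libraries labelled ZC3H7A/B-DD 6 were higher, 15 higher without Parental replicate 3 and 4 higher without Parental replicate 1 or 2 or ZC3H7A/B-DD replicate 1 or 2. The summed level of these markers was 384594 to 435985 there, against 266806 to 375727 in Parental libraries. In the Flag/HA set it was 357087 to 377147 with ZC3H7A and 375020 to 414069 with ZC3H7B, against 384887 to 403365 in the control. The cell cycle markers' part in the histone results was not tested. Of 14 further variant histone genes, mostly testis-specific, 3 passed the filter in the Flag/HA set and 5 in the other. HIST1H1T, the testis linker histone, was called higher with both proteins, at 72.7 ± 15.5 with ZC3H7A and 63.9 ± 12.8 with ZC3H7B, against 38.4 ± 2.84 in the control, and the call with ZC3H7B was lost without ZC3H7B replicate 1.

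The genes whose pattern was most like a member's were sought among 11417 genes, by Pearson's r of log2 values over the 15 libraries with each set centred on its own mean. The libraries share groups and scaling, so these are descriptions. H1F0 gave the highest values, 0.985 with COL2A1 and 0.983 with LAMB2. H2AFY gave 0.958 with CSTF3 and 0.948 with ZNF622, CENPA 0.935 with CNST, H2AFX 0.914 with MED1, H1FX 0.898 with GOLPH3, H2AFZ 0.88 with HAUS1, H3F3A 0.877 with PEX26, H2AFV 0.854 with RAB39A, H3F3B 0.844 with RNVU1-19 and H2AFJ 0.814 with TRMT61B.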

How the data were processed

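The deposited table holds ribosome footprints of 15 HEK293 libraries (5 groups of 3). Per the file name these are normalized counts made by the authors, and they were treated as a normalized signal per gene name. Tools that the submitters' processing notes list are STAR, HTSeq, Bowtie, cutadapt and DESeq2, with the builds hg38 and hg19, without their roles. All values of a library were whole multiples of 1 step (100% of them within 0.001 reads), from which the reads were recovered.

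The test was limma 3.58.1 (R 4.3.3; lmFit, eBayes, trend) on log2(value + 1), in 1 fit of the 9 Flag/HA libraries and 1 of the other 6. A gene entered a fit with 3 or more libraries at 10 or above, and p-values were adjusted by Benjamini-Hochberg over all genes of the fit (threshold 0.05). The limma steps were run on simulated counts with 200 genes changed. Those changes were larger than most of the called member changes, so the simulation does not cover changes that small. Tried as alternatives were a different pseudocount, filter or scaling, weights, edgeR 4.0.16 and DESeq2 1.42.0 on the recovered reads, the replicate number as a block, 1 spread for all 15 samples, and every library left out in turn. Shares within a pair of paralogs were compared by exact permutation. Coding sequences are those of GENCODE release 29 (GRCh38), principal transcripts first and then the longest.

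Named are the members, the targets, examples from the 3 called genes with the smallest adjusted p per list, direction and comparison, and the genes most alike. H2AFY2 and H3F3C, relatives of members, and genes sharing windows were added by name. Members and lists were chosen with earlier results of these data known. The 28 names turned into dates or duplicated stayed unnamed.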

Additional observations from a re-analysis of the deposited data

Results flagged for a closer look

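For 4 members the effects of the 2 overexpressed proteins differed by the test of the difference itself, ZC3H7A minus ZC3H7B, on the log2 scale. The difference was -0.31 for H1F0, which fell with both proteins and further with ZC3H7A. It was -0.49 for H3F3A and -0.17 for H2AFX, which rose with ZC3H7B and were not called with ZC3H7A. It was -0.15 for H2AFY, which was called against the control with neither protein.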

How the results depend on the processing

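Of 480 log2 changes of members under 12 alternatives each, 438 kept direction and side of the threshold, 15 lost the call, 19 gained it and 8 reversed. Of 330 with 1 library left out these numbers were 273, 30, 10 and 17. The calls of H1F0 with both proteins and between them, of H2AFX and H3F3A with ZC3H7B and of CENPA in the libraries labelled ZC3H7A/B-DD held under all of them. The 1 member higher with ZC3H7A became 0 without the filter, with DESeq2 size factors, by DESeq2 and with 1 spread for all 15 samples, 3 with quantile scaling, and 0 to 2 with 1 library left out. The 3 lower became 1 with 1 spread, 2 without the filter and with quantile scaling, 4 with DESeq2 size factors, by DESeq2 and with the replicate block (H2AFY added), and 1 to 4 with 1 library left out. With ZC3H7B the 2 higher became 5 and the 1 lower became 2 with quantile scaling, and the lower count was 1 to 3 with 1 library left out. Between the proteins the 0 higher became 1 with a pseudocount of 10, a filter of 50, TMM, quantile or DESeq2 scaling, precision weights, edgeR, DESeq2 or the replicate block, and 0 to 1 with 1 library left out. The 4 lower became 1 with 1 spread and 2 to 4 with 1 library left out. In the libraries labelled ZC3H7A/B-DD the 3 lower became 4 with 1 spread, 2 without the filter, with quantile scaling and with the replicate block (H2AFJ lost, adjusted p = 0.0693), and 1 to 3 with 1 library left out.

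Of the reversed log2 changes 1 was called, H2AFV with ZC3H7B under quantile scaling (limma adjusted p = 0.0311). With quantile scaling H2AFY gave 0.033 with ZC3H7A, and H2AFZ, H2AFV and CENPA gave 0.016, 0.10 and -0.038 with ZC3H7B. Between the proteins H3F3B gave 0.019 with TMM and by edgeR and 0.0084 and 0.0083 with DESeq2 size factors and by DESeq2. With 1 library left out the values were -0.025 to 0.021 for H2AFV and -0.019 to 0.14 for CENPA with ZC3H7B. Between the proteins they were -0.13 to 0.015 for H2AFZ, -0.29 to 0.043 for H2AFJ, -0.022 to 0.0066 for H3F3B, -0.14 to 0.043 for H1FX and -0.060 to 0.10 for CENPA. In the libraries labelled ZC3H7A/B-DD they were -0.0038 to 0.20 for H2AFZ, -0.15 to 0.014 for H3F3A and -0.10 to 0.048 for H3F3B. The H3F3A share differed by -0.0493 to 1.25 points with ZC3H7A and by -0.0609 to 0.0072 in the libraries labelled ZC3H7A/B-DD, and the H2AFZ share by -3.37 to 1.33 points there. The cause of these changes was not tested.

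Numbers did not pair the libraries (correlations of same-numbered deviations -0.133 to 0.0922), so the block is an alternative only. With few reads, as for H3F3A, H2AFJ and H3F3C, counting error limits what can be seen.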
